A study of Mus musculus with 2 samples.

Results

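Limb muscle is made by cells that are not of limb origin. They leave the somites, migrate into the limb bud and there pass through determination and differentiation under a small set of transcription factors and 1 receptor. The 9 genes examined here are Pax3, Lbx1, Met and Pax7, which act in the progenitors, Myf5 and Myod1, which commit them to the muscle lineage, and Myog, Myf6 and Mef2c, which act in differentiation. They were taken by gene symbol as a list of regulators, with transcripts summed to genes. All 9 were found among the 23157 genes of the table, as 15 of its 64053 transcripts. None lies on chromosome 2, the chromosome that carries the inversion.

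The libraries come from distal forelimbs of mouse embryos at E12.5 (strain C57Bl6CBAF1), 1 from wild type and 1 from embryos homozygous for HoxD Inv(TpSB1-Itga6), a 2.4 Mb inversion on chromosome 2 that moves distal regulatory islands away from Hoxd13. The series describes 3 pairs of forelimbs as the source of RNA. The strain, stage and tissue fields are the same for both, with distal limb as the tissue, but the titles differ. The wild-type sample is titled wtFL and the other invDFL, while the table heads the wild-type values wtDFL. Whether both dissections took the same extent of the forelimb is therefore not certain from the labels, and a difference in extent cannot be told apart from genotype for the muscle genes. With 1 library per genotype there is no replicate check on any difference below, and no test was made. Each interval given for a log2 ratio comes from the exact Clopper-Pearson bounds (95%) on the part of a gene's reads that the inversion contributed. It covers counting error only and compares these 2 libraries, not the genotypes.

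The myogenic factors are best known as a relay. The paired-box factors Pax3 and Pax7 mark successive progenitor populations, with Pax3 required for delamination from the somite and Pax7 for the later fetal and satellite cells. The homeodomain factor Lbx1 and the receptor tyrosine kinase Met serve the migration into the limb. Myf5, Myod1, Myog and Myf6 are basic helix-loop-helix proteins that pair with E proteins and bind the E-box, and Mef2c is a MADS-box factor that works with them on muscle genes. Several of the genes are also used outside muscle, since Met is present in epithelia, Mef2c in endothelium and cartilage, and Pax3 in neural crest.

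The regulation of Myog is the textbook case of these factors acting on one another, and its promoter is therefore shown beside those of Myf5 and of the first start of Mef2c. RefSeq start sites on GRCm38.p6 were available for 5 of the 9 genes (Myog, Myf5, Mef2c, Met and Pax7). The sequences run 5′ to 3′ on the strand of the gene and stop at the first transcribed base of GENCODE M21. Capitals mark the E-box (CANNTG), the core of the MEF2 site (TANNNNTA with each N an A or a T) and the MEF3 site (TCAGGTT), searched with TATAAA on both strands over the 250 bases before the RefSeq start.
Myog, chr1:134289754-134289988, + strand: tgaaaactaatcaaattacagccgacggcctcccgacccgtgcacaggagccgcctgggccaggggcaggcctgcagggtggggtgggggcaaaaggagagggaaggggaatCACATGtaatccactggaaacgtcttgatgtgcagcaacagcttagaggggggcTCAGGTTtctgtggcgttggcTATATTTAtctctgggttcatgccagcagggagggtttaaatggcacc
Myf5, chr10:107486135-107486384, - strand: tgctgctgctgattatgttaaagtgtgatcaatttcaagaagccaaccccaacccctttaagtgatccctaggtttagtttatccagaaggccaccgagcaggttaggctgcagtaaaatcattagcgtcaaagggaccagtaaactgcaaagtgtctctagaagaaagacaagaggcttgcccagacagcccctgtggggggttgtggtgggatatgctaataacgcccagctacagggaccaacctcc
Mef2c, chr13:83503784-83504033, + strand: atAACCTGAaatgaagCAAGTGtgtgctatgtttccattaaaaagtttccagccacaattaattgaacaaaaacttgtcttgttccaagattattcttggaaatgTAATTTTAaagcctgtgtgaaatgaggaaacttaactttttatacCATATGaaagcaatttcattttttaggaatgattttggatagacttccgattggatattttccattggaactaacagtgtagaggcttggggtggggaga

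Myog held 2 E-boxes, 1 MEF2 core and 1 MEF3 motif in its 250 bases. The second E-box, 12 to 7 bases before the RefSeq start, lies past the printed stretch. The first start of Mef2c held the same kinds of motif, with 2 E-boxes, 1 MEF2 core and 1 MEF3 motif on the opposite strand, and 1 match to TATAAA. The other 2 starts of Mef2c held no MEF2 core and no MEF3 motif. Myf5 and Pax7 held none of the 4 motifs in these windows, and Met held 1 E-box. The window of Pax7 lies wholly inside its GENCODE gene, and only 93 of the 250 bases of Met lie outside its own. Over all 32851 promoters of the same length, 66.2% held an E-box, 8.56% the MEF2 core, 3.49% the MEF3 motif and 12.4% TATAAA, so that an E-box alone is common. These matches are letters in a window and not measured binding.

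The libraries held 9280660 (wild type) and 9466154 (inversion) reads assigned to transcripts. In wild type 5133 transcripts had no reads, and in the inversion 3181. The part of this difference in the ratios of genes with few reads was not tested. Xist, the RNA of the inactive X chromosome, had 2607 and 13 reads in this order, and the Y-linked gene Ddx3y had 282 and 790. The sexes of the pooled embryos and the genotype cannot be told apart for any value below. Limb mesenchyme markers were present in both, among them Prrx1 (3857 and 3913 reads) and Lhx9 (1942 and 1873). Values are reads divided by the authors' size factor of the library, called normalized reads. Ratios are inversion over wild type on the log2 scale after adding 1 to both values, which understates the difference of genes with few reads. They are given where the mean of both libraries reached 10.

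The layers of the relay had different read numbers in wild type. Mef2c and Met were the most read genes, with 950 and 416 normalized reads, followed by Myog with 157 and Myod1 with 138. The progenitor factors Lbx1 (42.5) and Pax3 (26.3) and the determination factor Myf5 (25.3) had fewer, Pax7 had 7.09 and Myf6 had no reads. Long transcripts collect more reads, so the order was also taken per length, as normalized reads per kilobase of transcript with lengths of GENCODE M21. On that scale the wild-type order was Mef2c (149), Met (108), Myog (105), Myod1 (74.0), Lbx1 (17.1), Myf5 (12.2), Pax3 (7.41) and Pax7 (1.21). The values of Mef2c, Met and Pax3 are sums over several transcripts. They are too high, and the order may differ, if a read was counted in more than 1 transcript. Met and Myog had overlapping intervals in this order, as did Lbx1 and Myf5, and Myf5 and Pax3, while the other neighbours had separate intervals. In the inversion library Myog came first per kilobase (177), ahead of Mef2c (142), Met (115) and Myod1 (91.3). Met and Myod1 had overlapping intervals there, as did Lbx1 (28.6) and Myf5 (17.1), as did Pax7 (6.07) and Pax3 (5.83), and as did Pax3 and Myf6 (1.57, from 2 reads). Among the genes with reads and a length, 55.3% had a lower value per kilobase than Myog in wild type and 67.6% in the inversion.

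**Figure D1:**
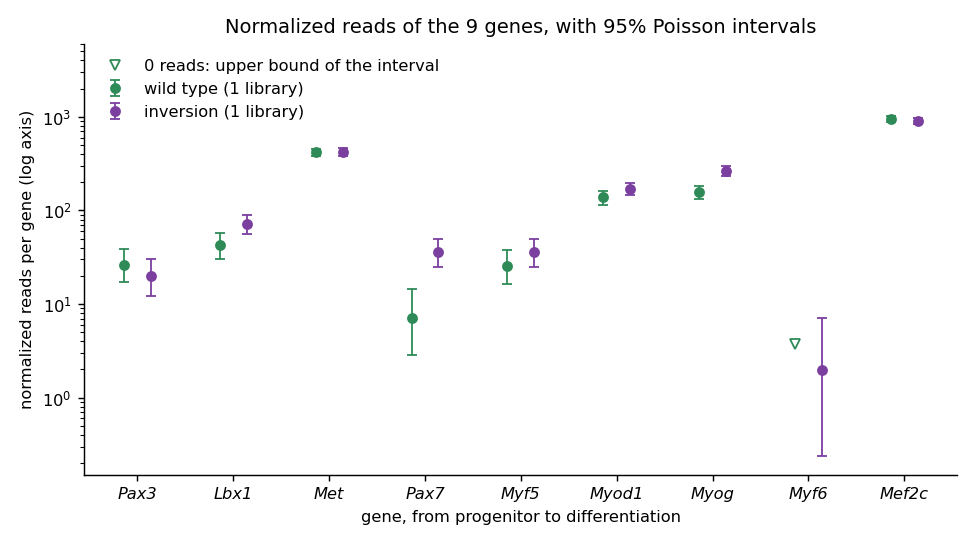
Normalized reads (log axis) of the 9 genes in the wild-type library (green) and the inversion library (purple), with exact Poisson intervals (95%) that cover counting error only. Pax7 and Myog have intervals that do not overlap between the libraries, and the open triangle is the upper bound for Myf6, which had 0 reads in wild type.

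Of the 9 genes, 8 passed the filter on the mean, and Myf6 did not. In the inversion library 1 of the 8, Pax7, was at least 2-fold higher, against 3.99% of all 16756 genes past the filter, and 0 were at least 2-fold lower, against 0.483%. Intervals lay above 0 for 3 of the 8 (Pax7, Lbx1 and Myog), against 16.7% of all genes, and below 0 for 0, against 13.0%. The median log2 ratio of the 8 was 0.39, and that of all genes -0.02. Pax7 passed the filter only through the inversion library, so these counts are a description of the list. More cells of a type and more RNA per cell cannot be told apart in bulk tissue.

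Pax3 (chr1:78101267-78197134, - strand, coordinates of GENCODE M21 on GRCm38 here and below) is the earliest factor of the relay. Its reads numbered 26 in wild type against 20 with the inversion, or 26.3 and 19.8 after normalization. The log2 ratio was -0.40 with an interval of -1.33 to 0.48, and a difference was not detectable at this depth. Its 2 transcripts pointed in different directions, with 17 and 9 reads for the longer one and 9 and 11 for the other, each with an interval that includes 0. When the transcript of the highest mean stood for the gene, the log2 ratio was -0.88 (interval -2.30 to 0.29).

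Lbx1 (chr19:45232684-45235812, - strand), the homeodomain factor of the migrating cells, had 42 reads in wild type against 72 with the inversion. These are 42.5 and 71.1 normalized reads, a ratio of 1.67 and a log2 ratio of 0.73 (interval 0.17 to 1.33). The inversion library was higher beyond counting error, by an amount whose interval runs from little change to more than 2-fold.

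Met (chr6:17463800-17573980, + strand) encodes the receptor for Hgf, the factor that the limb mesenchyme releases to draw the progenitors in. It had 411 and 430 reads, or 416 and 425 once normalized. At a log2 ratio of 0.03, the interval (-0.17 to 0.23) is the narrowest of the progenitor genes. The main transcript had 253 and 279 reads and the next 138 and 130, and neither had an interval off 0. The surface ectoderm, which also carries Met, was lower in the inversion library by its markers. Of these, 8 of 8 had a negative log2 ratio and 7 an interval below 0, against 13.0% of all genes. Among the markers Krt5 had a log2 ratio of -0.22, Trp63 of -0.11 and Krt14 of -0.24. The summed reads of the 8 markers were 6429 and 5627, and their part in the value of Met was not tested.

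Pax7 (chr4:139737062-139833528, - strand), the factor of the later progenitors, had the highest log2 ratio of the 9 genes. The wild-type library held 7 reads and the inversion library 36, that is 7.09 and 35.6 normalized reads. The log2 ratio was 2.18, with an interval of 1.14 to 3.74 that starts past 2-fold. The value rests on few reads, and its size depended on the pseudocount, with 1.75 at a pseudocount of 5 and 2.31 at 0.1. Pax7 is also carried by neural crest cells. Of the 8 Schwann and neural crest markers past the filter, 1 had an interval above 0 and 0 below, against 16.7% and 13.0% of all genes. Sox10 had 162 and 172 reads, Erbb3 733 and 724 and Mitf 87 and 112. The summed reads of that list were 1157 (wild type) and 1275 (inversion), and their part in the value of Pax7 was not tested.

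**Figure D2:**
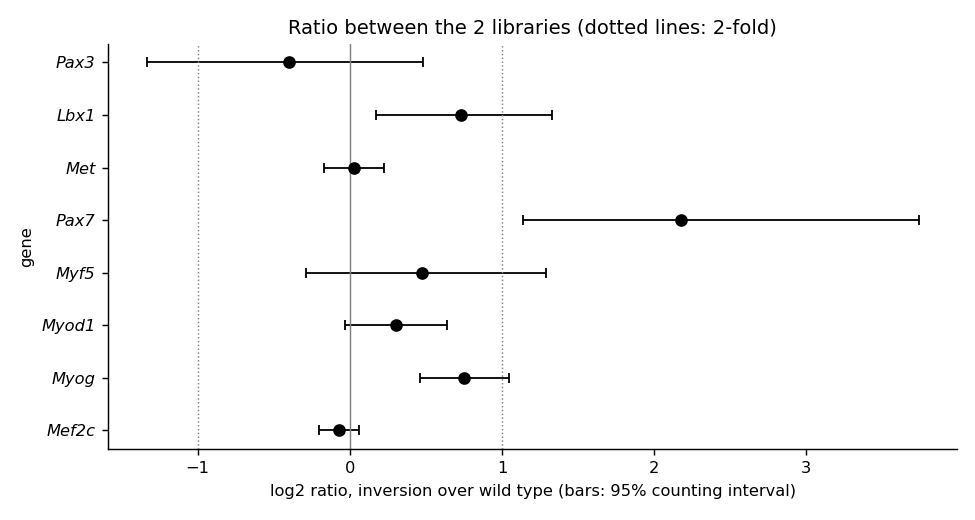
Log2 ratio of inversion over wild type for the 8 genes past the filter, with bars for the counting interval (95%) and dotted lines at 2-fold. The intervals of Pax7, Lbx1 and Myog lie above 0, and those of Pax3, Met, Myf5, Myod1 and Mef2c include it.

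Myf5 (chr10:107482908-107486134, - strand), the first of the determination factors to act in the embryo, had 25 and 36 reads. The log2 ratio of 0.47 had an interval of -0.29 to 1.29, and a difference was not detectable at this depth. Its neighbour Myf6 (chr10:107492853-107494737, - strand), 6718 bases away, encodes MRF4, which acts late in the differentiation of fibres. Myf6 had 0 reads in wild type, which allows up to 3 reads (0.323 RPM), and 2 reads in the inversion. Both values are at or under that limit and no ratio is given.

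Myod1 (chr7:46376474-46379099, + strand), the other determination factor, had 136 and 172 reads, or 138 and 170 normalized reads. Its log2 ratio was 0.30, with an interval of -0.03 to 0.64. The interval only just includes 0, and a difference of 2-fold in either direction lies outside it.

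Myog (chr1:134289989-134292548, + strand) encodes myogenin, the factor that starts terminal differentiation, and it had the narrowest interval of the 3 genes that were higher. It had 155 reads in wild type against 268 with the inversion, or 157 and 265 normalized reads, a ratio of 1.69. The log2 ratio was 0.75 (interval 0.46 to 1.05). Its promoter is the one shown above with the MEF2 core and the MEF3 motif.

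Mef2c (chr13:83504034-83667080, + strand) had 938 and 916 reads, the most of the 9 genes, and a log2 ratio of -0.07 (interval -0.20 to 0.06). It carries the same kinds of motif as Myog in the window of its first start, but not the MEF2 core or MEF3 motif at its other 2 starts. The ratios of Myog and Mef2c had separate intervals, and the part of the motifs in either value was not tested. The 2 main transcripts of Mef2c had nearly the same reads in each library, 455 and 465 in wild type and 448 and 448 in the inversion. Whether reads that fit both were counted in each is not given in the sources used here. With 1 transcript alone the log2 ratio was -0.09 (interval -0.28 to 0.10). Endothelial cells also carry Mef2c. All 10 endothelial markers had a negative log2 ratio, with a median of -0.10 and 2 intervals below 0, against 13.0% of all genes. The largest of the 10 by reads were Cdh5 (1253 and 1217), Erg (1066 and 1018) and Kdr (926 and 922). Chondrogenic markers went both ways, with 5 of 10 intervals above 0 and 2 below, against 16.7% and 13.0% of all genes. Col2a1 had a log2 ratio of 0.37, Col9a1 of 0.19, Col9a3 of -0.04 and Matn1 the highest at 1.68 (100 and 331 reads). The parts of these cells in the value of Mef2c were not tested.

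Ratios between 2 genes of the same library do not depend on the scaling between libraries, and they were taken as the share of 1 gene in the reads of both. Myog made up 53.3% of the reads of Myod1 and Myog in wild type (155 of 291, exact interval 47.4% to 59.1%) and 60.9% in the inversion (268 of 440, 56.2% to 65.5%). The 2 intervals overlap. Overlap of such intervals, here and below, does not show that the shares are equal, and no test compared them. Pax3 made up 16.0% of the reads of Pax3 and Myod1 in wild type (10.8% to 22.6%) and 10.4% in the inversion (6.48% to 15.6%), again with overlap. For Myf5 among Myf5 and Myod1 the shares were 15.5% and 17.3%. The 4 progenitor genes made up 27.9% of the reads of all 9 genes in wild type and 28.6% in the inversion, a share that Met and Mef2c dominate.

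Further shares were chosen after the values were seen. Pax7 made up 21.2% of the reads of the 2 paired-box genes in wild type (7 of 33, 8.98% to 38.9%) and 64.3% in the inversion (36 of 56, 50.4% to 76.6%), with intervals that do not overlap. Lbx1 among Lbx1 and Pax3 went from 61.8% to 78.3% with overlapping intervals. Myog among the reads of Myog and Myh3, the embryonic myosin heavy chain, was 45.1% in wild type (39.7% to 50.5%) and 27.3% in the inversion (24.5% to 30.2%). The ratio between the libraries was thus larger for the myosin than for the factor that precedes it.

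**Figure D3:**
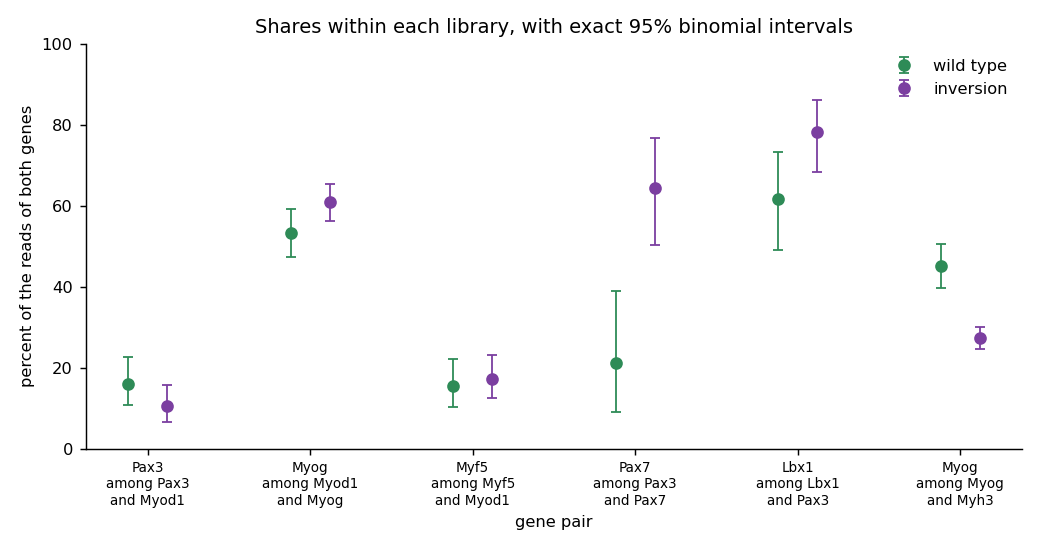
Share of the first gene in the reads of each gene pair, in percent, for the wild-type (green) and the inversion library (purple), with exact binomial intervals (95%). The intervals separate for Pax7 among Pax3 and Pax7 and for Myog among Myog and Myh3, and they overlap for the other 4 pairs.

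The genes around the relay were described as lists. Of 17 genes for the specification and migration of the progenitors, 16 passed the filter. Their median was 0.28 (log2), with 0 past 2-fold, against 3.99% of all genes higher and 0.483% lower. Intervals lay above 0 for 8 (50%, against 16.7% of all genes) and below for 1 (6.25%, against 13.0%). The 3 with the most reads in wild type were Gab1, an adaptor of the Met receptor (1144 and 1156 reads, log2 ratio -0.02), the chemokine Cxcl12 (998 and 1341, 0.39) and the homeobox gene Meox2 (786 and 834, 0.05). Among the others, named after their values were seen, Dmrt2 was the highest of the list (164 and 323 reads, 0.94, interval 0.67 to 1.22). Hgf had 91 and 152 reads and a log2 ratio of 0.70 (interval 0.32 to 1.10), in contrast to its receptor Met at 0.03. Six4, which binds the MEF3 site, was at 0.00 (658 and 676 reads). The Eya cofactors differed in direction, with Eya1 at 0.38, Eya4 at 0.33 and Eya2 at -0.37, each with an interval off 0.

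Partners and inhibitors of the myogenic proteins had a median of -0.01 over the 19 genes past the filter, of 20 found. The E proteins that pair with Myod1 and Myog had log2 ratios of -0.07 (Tcf12), -0.01 (Tcf4) and 0.07 (Tcf3), from between 1764 and 3699 reads in each library. Of the 19 genes 2 had an interval above 0 (10.5%, against 16.7% of all genes) and 2 below (10.5%, against 13.0%). Past 2-fold was 1, against 3.99% of all genes higher and 0.483% lower. This was Mstn, which encodes myostatin and had 30 and 63 reads (log2 ratio 1.01, interval 0.39 to 1.71).

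Genes that the relay switches on had the highest median of these lists. All 22 genes of contraction, fusion and the neuromuscular synapse that were found had a positive log2 ratio, from 0.69 to 2.71 with a median of 1.27. Of these, 17 were at least 2-fold higher, against 3.99% of all genes, and 21 had an interval above 0, against 16.7%. The 3 with the most reads in wild type were the actin gene Actc1 (328 and 547 reads, log2 ratio 0.70), the troponin gene Tnnt1 (224 and 372, 0.69) and Myh3 (189 and 715, 1.88). The other 16 past 2-fold were Tmem8c (myomaker, the fusion protein), Myh7, Myh8, Myl1, Myl4, Mylpf, Acta1, Tnnt2, Tnnc1, Tnnc2, Tnni1, Des, Ttn, Neb, Chrnd and Chrng. Myh7 was highest at 2.71 from 9 and 66 reads, followed by Myh8 at 2.52 (17 and 105 reads), Neb at 2.33 (48 and 252) and Ttn at 2.11 (125 and 555). Myh7 and Chrnd (8 and 31 reads) passed the filter only through the inversion library. The summed reads of the 22 genes were 1758 and 4622, a log2 ratio of 1.36, against 161 and 208 reads and 0.33 for Myf5 and Myod1 together. Of the 22, Tmem8c, Actc1, Tnnc2, Ttn, Neb, Chrna1 and Rapsn lie on chromosome 2, the chromosome that carries the inversion. The paper describes the Chrna1 locus as a boundary on the centromeric side of HoxD. By the paper's deletions, Chrna1 lies past the TpSB1 breakpoint as seen from HoxD, on the side that the inversion takes in. Where the others lie against the inverted segment was not worked out. The part of chromosome position in these values was not tested.

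**Figure D4:**
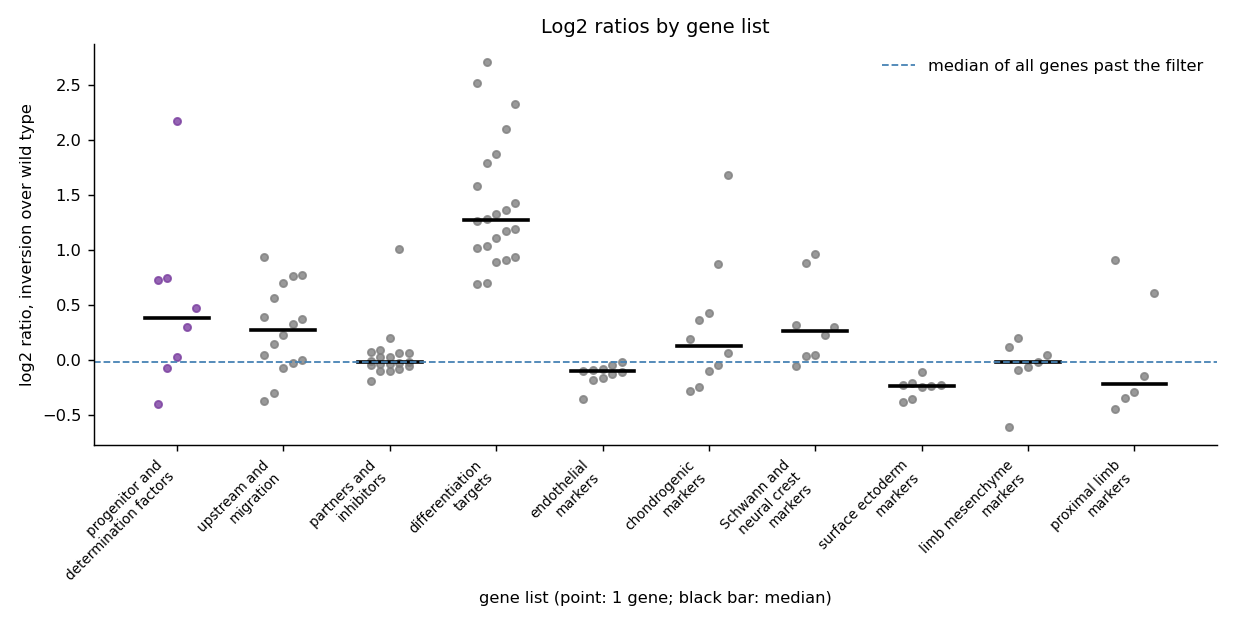
Log2 ratio of inversion over wild type for each gene past the filter (points) and the median (black bars) by gene list, with the 8 myogenic factors in purple and the median of all genes as a dashed line. The 22 differentiation genes all lie above 0, and their median of 1.27 is above that of the myogenic factors at 0.39.

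Markers of the proximal limb went both ways. Shox2 (376 and 724 reads, log2 ratio 0.91) and Hoxa11 (443 and 695, 0.61) were higher, while Meis2 was at -0.34 (515 and 417). The 6 genes had a median of -0.21 with 2 intervals above 0 and 2 below, against 16.7% and 13.0% of all genes. Hoxd13, the distal HoxD gene whose regulatory islands the inversion displaces, was at -0.61. The part of the level of dissection in the values of the myogenic genes was not tested.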

How the data were processed

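Poly(A)-selected, strand-specific RNA-seq of E12.5 distal forelimbs was analysed, with 1 library per genotype. The authors mapped the reads to NCBIM37 (mm9) and assigned them with the RNA-seq pipeline of HTSstation, and the submitters' processing notes list Bowtie2. The deposited table gives a signal per transcript and library, the reads divided by a size factor, with 0.5 for no reads. It also holds the authors' mean, fold change, p-value and adjusted p-value, which were not used here. Apart from 0.5, 100% of the values of each library were whole multiples of the worth of 1 read (within 0.02 of a step). The reads so obtained gave the counting intervals, and sums over transcripts gave the genes. Mef2c, Met and Pax3 have more than 1 transcript. Their levels are too high and their intervals too narrow if a read was assigned to several transcripts, on which the sources used here are silent. The same limit holds for every other gene with more than 1 transcript, in the lists and among all genes. The methods name RPKM, but these values do not scale with length.

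No test was run, since 1 library per genotype allows none. Lengths came from GENCODE M21 (88.1% of transcripts matched by identifier), a build other than that of the mapping, and no coordinate was converted. One transcript of Mef2c had no length and was left out of its value per kilobase. The genes described and the lists were chosen with earlier results of these data known. The named genes were the 9 factors, each gene of a list past 2-fold, and the 3 genes of each list with the most reads in wild type. Hgf, Six4, Eya1, Eya2, Eya4 and Dmrt2 fall outside this rule and were chosen after their values were seen. Chrna1 and Rapsn also fall outside it and were named for their chromosome. Ckm was not matched in the table, and some genes of the lists are not reported here by name. The steps were tested on simulated libraries. Values were computed in Python 3.11.15 with pandas 2.3.3 and numpy 2.4.6, intervals with scipy 1.17.1, and plots were drawn with matplotlib 3.10.9.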

Additional observations from a re-analysis of the deposited data

How the results depend on the processing

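Of 48 values of the 8 genes under an alternative (2 scalings, 2 pseudocounts, the transcript of the highest mean, protein-coding transcripts), 48 stayed within the main counting interval. Most of these could not change which genes had an interval above 0. The intervals do not use the pseudocount, Pax7, Lbx1 and Myog have 1 transcript each, and the scalings move every log2 ratio by 0.0075 or -0.0094. The median of the 8 genes ran from 0.36 to 0.40, and was 0.16 when the minimum mean was 100, which leaves 4 genes. No filter adds only Myf6, which has too few reads for a ratio. The share of Pax3 among Pax3 and Myod1 in the inversion library was 4.97% with the transcript of the highest mean, which leaves out 1 of the 2 transcripts of Pax3.

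Counts over all genes moved with the filter and the threshold. Genes at least 2-fold higher numbered 1992 without a filter, 139 at a mean of at least 100 and 412 with protein-coding transcripts only, against 1577 at 1.5-fold and 113 at 4-fold. Lower genes numbered 1089 without a filter, 12 at a mean of at least 100, 341 at 1.5-fold and 13 at 4-fold. Intervals above 0 numbered 2802 in the main setting, 2102 with the transcript of the highest mean and 1803 with protein-coding transcripts only. Those below 0 numbered 2172, 1881 and 2074 in the same order. Depth limits Pax3, Myf5, Pax7 and Myf6, each with at most 36 reads in a library. No paired analysis was possible because each genotype has 1 library.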
